A study of Mus musculus with 18 samples.

Results

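The interferon response and antigen presentation module was described here as 41 mouse genes chosen by name, of which 40 were among the 21937 genes of the deposited table. Rnf213 was not analysed here. The 40 genes comprise 3 sensors of viral RNA, 5 transcription factors, 22 effectors, 5 regulators and 5 genes of the MHC class I pathway. Of these, 31 averaged 10 normalized reads or more and so entered the tests, which ran over 12393 genes of the table. The members were followed in NIH3T3, a mouse fibroblast line, after a pulse of dexamethasone, a glucocorticoid used to synchronize the circadian clocks of cultured cells. All groups received 100 nM dexamethasone for 2 h and were then returned to normal medium, and the medium change is 0 h. RNA was sequenced at 0, 4, 8, 12, 16, 20, 24, 28 and 32 h, with 2 libraries at each of the 9 times, replicate 1 and replicate 2. No library came from cells without dexamethasone and none from cells given interferon or virus, so every change below is between times of the same treated line.

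Interferons are secreted when receptors such as RIG-I (Ddx58) and MDA5 (Ifih1) bind viral RNA. They signal through JAK kinases to a complex that holds STAT2 and IRF9 and binds the interferon-stimulated response element (ISRE) in the promoters of antiviral genes, while the gamma-activated site (GAS) is the element known for the response to interferon gamma. Fibroblasts make and answer type I interferon, hold a low tonic level of the antiviral genes without infection, and display peptides on MHC class I, whose loading needs the TAP transporter, tapasin (Tapbp) and beta-2-microglobulin (B2m). Glucocorticoids are known to dampen inflammatory and interferon-driven transcription.

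Promoter sequence is given for 6 members whose levels are described below, because the ISRE is the element known for interferon-driven transcription and only some members hold a match. Sequences are from RefSeq, GRCm38.p6, and are the 120 bases before the annotated start, read 5′ to 3′ on the gene's strand. In the first 4, capitals mark matches to the ISRE core, taken as GAAA, any 2 bases and GAAA again, or on the other strand as TTTC, any 2 bases and TTTC. Isg15, a ubiquitin-like modifier, has 3 overlapping matches, and Ifit1, which binds foreign RNA ends, has 2. Gbp2, a guanylate-binding GTPase, and Ifitm2, a membrane protein that blocks virus entry, have 1 each. In Irf1, a transcription factor, capitals mark a match to the GAS core TTCNNNGAA, which is its own reverse complement. The first of the 2 annotated Irf1 starts is shown. The window of Tapbp held neither motif.
Isg15, chr4:156200819-156200938, minus strand: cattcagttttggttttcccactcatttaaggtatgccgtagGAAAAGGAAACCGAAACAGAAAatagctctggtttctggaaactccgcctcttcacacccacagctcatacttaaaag
Ifit1, chr19:34640769-34640888, plus strand: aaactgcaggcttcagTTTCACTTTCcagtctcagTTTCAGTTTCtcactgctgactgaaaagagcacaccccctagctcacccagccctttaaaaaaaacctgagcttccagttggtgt
Gbp2, chr3:142620543-142620662, plus strand: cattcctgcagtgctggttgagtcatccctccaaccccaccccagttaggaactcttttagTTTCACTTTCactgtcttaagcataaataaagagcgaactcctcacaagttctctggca
Ifitm2, chr7:140955962-140956081, minus strand: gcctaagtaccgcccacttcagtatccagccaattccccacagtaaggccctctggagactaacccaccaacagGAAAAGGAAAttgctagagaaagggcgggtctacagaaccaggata
Irf1, chr11:53769894-53770013, plus strand: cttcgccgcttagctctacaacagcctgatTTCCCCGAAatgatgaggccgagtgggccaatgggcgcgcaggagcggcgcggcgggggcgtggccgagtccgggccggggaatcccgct
Tapbp, chr17:33919358-33919477, plus strand: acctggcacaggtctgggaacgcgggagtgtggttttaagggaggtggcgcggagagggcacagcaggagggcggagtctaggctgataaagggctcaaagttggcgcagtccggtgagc

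A window of 250 bases before a start was at hand for 33 members, matched by symbol. The ISRE core, searched on both strands, was in at least 1 window of 11 of the 33 members (33.3%), against 3.46% of 27025 genes with a window. The members were Isg15, Ifit1, Ifit3, Gbp2, Gbp3, Ifitm2, Bst2, Stat2, B2m, Oas1a and Rsad2. The GAS core was in 6 of 33 members (18.2%), namely Irf1, Ifit2, Isg20, Eif2ak2, Bst2 and Oas1a, against 8.13% of all genes with a window. Because the members were chosen by name as genes of this response, their shares are no independent support for a role of either element. A match to these letters is a description of the sequence and does not show that a factor binds there.

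Sequencing depth, as reads assigned to genes, was 25.4 to 32.0 M for the replicate 2 libraries and 31.9 to 38.9 M for those of replicate 1. Each value is the authors' normalized read count, the reads of a gene divided by 1 factor per library, and pairs of values below are replicate 1 and replicate 2. Changes are log2 differences of (value + 1) ± SE from limma over all 18 libraries, with p-values adjusted over the 12393 genes and called at 0.05, and this scale understates the change of low genes. The labels do not say whether the replicates were separate cultures, so p-values measure the spread between these libraries. The 4 comparisons with 0 h share the 0 h libraries, and the 4 h libraries enter both the first of these and the comparison of 28 h with 4 h. In bulk RNA, fewer cells expressing a gene and less RNA per cell cannot be told apart. All 7 fibroblast markers were tested, with a summed level of 606699 to 814734 normalized reads. The 13 leukocyte markers summed to 323 to 444 normalized reads and 4 of them were tested, with Cd3e and H2-Aa at 0 in every library and Ptprc at no more than 4.87. The 6 epithelial markers summed to 177 to 1196 and the 4 endothelial markers to 37.4 to 101 normalized reads.

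The commonest course among the members had a low point at 4 h and a high point at the end. Among the 31 tested members, 10 had their lowest mean at 4 h (32.3%, against 18.5% of all tested genes) and 14 had their highest mean at 32 h (45.2%, against 14.2%). Ifit1, which its late libraries took past the filter on the mean, is in both counts. By the F test over the 9 times 19 of 31 members differed, where 52.0% of all tested genes did, so the share of members changing at all was near the background. These were both tested sensors, 2 of 5 transcription factors, 11 of 14 effectors, 2 of 5 regulators and 2 of 5 MHC class I genes. With Ifit1 left out, 18 of 30 members and 10 of 13 effectors differed. The directions differed between comparisons. At 28 h against 4 h, 18 members rose and 2 fell, with a median log2 change of 0.34, while 20.6% of all tested genes rose, 20.7% fell and their median was 0.0086. Without Ifit1, which passed the filter on the mean through its late libraries, 17 of 30 rose and 2 fell, with a median of 0.34. At 4 h against 0 h, 4 members rose and 8 fell with a median of -0.26, where 21.5% of all genes were called (11.0% higher, 10.5% lower) with a median of -0.0015. With the replicate number as a block, 19 members were called at 4 h against 0 h, 6 higher and 13 lower. Of all 12393 tested genes 4662 were then called, against 2664 without the block. Fewer members were called at 4 h without 0 h replicate 2 or 4 h replicate 1, and at 28 h without 28 h replicate 2. In each of these fits fewer of all tested genes were called as well.

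**Figure D1:**
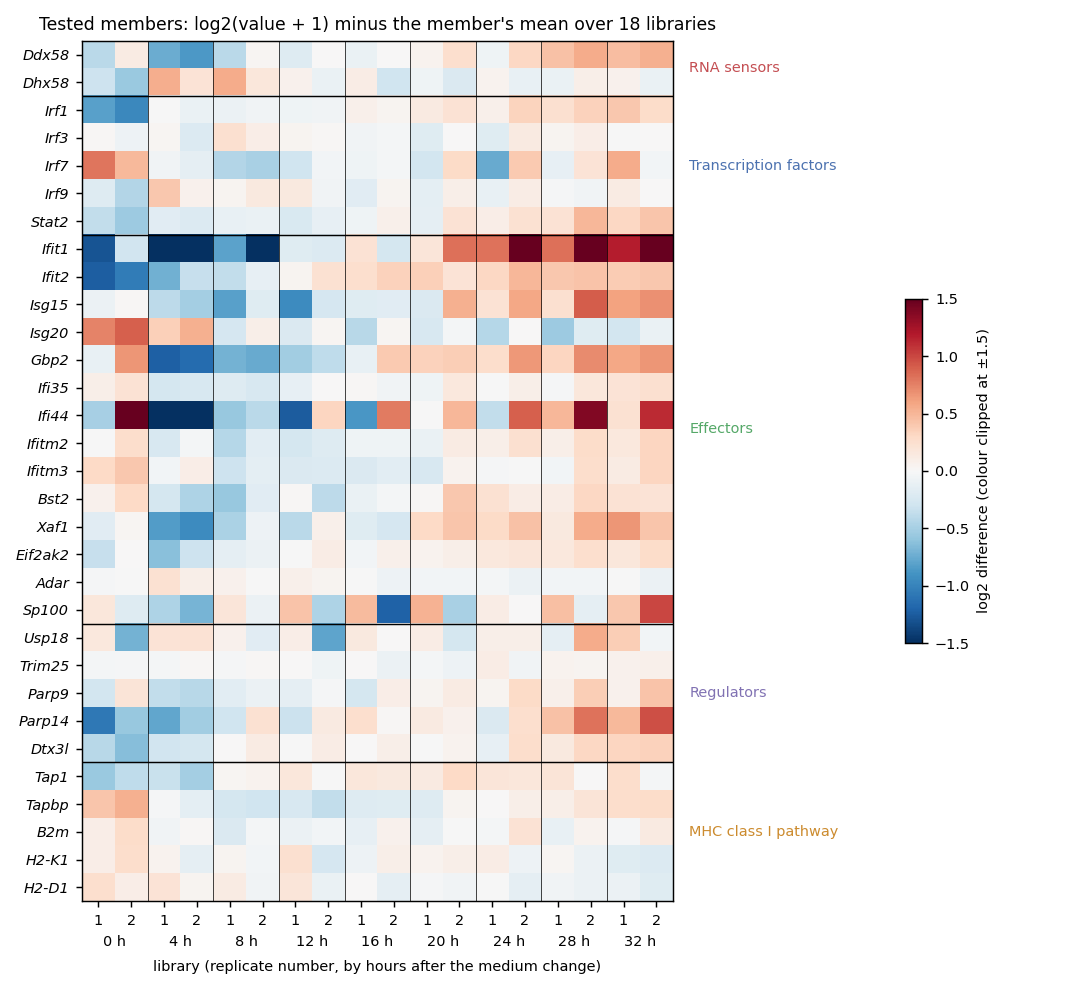
Level of the 31 tested members in each of the 18 libraries, as log2(value + 1) minus the member's mean over all libraries (red higher, blue lower, colour clipped at 1.5), with genes grouped by role and columns by hours after the medium change and replicate number. Ifit1, Gbp2, Xaf1 and Ddx58 are blue at 4 h and redden late in the course, whereas Isg20 and Tapbp are reddest at 0 h and the bottom rows, B2m, H2-K1 and H2-D1, are pale throughout.

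The RNA sensors moved in opposite ways in the first 4 h. Ddx58 (RIG-I) had 237 and 340.5 at 0 h, 186 and 172 at 4 h, 236 and 319.6 at 8 h, and 274 and 315 at 12 h. Later it had 292 and 313 at 16 h, 324 and 371 at 20 h, 300.1 and 389 at 24 h, 423 and 462 at 28 h, and 433 and 455 at 32 h. Its 4 h libraries lay below every other library, and all 4 libraries of 28 h and 32 h lay above those of every earlier time. The fall at 4 h against 0 h (log2 -0.66 ± 0.18, adjusted p = 0.0168) was called, as were the rise at 28 h against 4 h (log2 1.30 ± 0.18, adjusted p = 4.91e-05) and that at 32 h against 0 h (log2 0.64 ± 0.18, adjusted p = 0.00927). Dhx58 (LGP2), a relative of RIG-I that lacks its signalling domain and modulates both other sensors, had 117 and 98.8 at 0 h, 213 and 169 at 4 h, 215 and 164 at 8 h, and 153 and 136 at 12 h. Later it had 157 and 119 at 16 h, 139.9 and 125 at 20 h, 151 and 136 at 24 h, 136 and 156 at 28 h, and 153 and 137 at 32 h. The 4 h and 8 h libraries of Dhx58 were above those of 0 h, and the 4 h rise was called (log2 0.81 ± 0.18, adjusted p = 0.00532). Ifih1 (MDA5) had 8 reads in all 18 libraries together and was not tested. The 4 h calls were not firm: without 4 h replicate 1 the adjusted p was 0.0529 for Ddx58 and 0.0639 for Dhx58, and without 0 h replicate 2 it was 0.227 and 0.0688. The call of Ddx58 was also lost without 4 h replicate 2 (adjusted p = 0.0795). At 32 h against 0 h it did not hold when 32 h replicate 2 (adjusted p = 0.0572) or 0 h replicate 1 (0.135) was left out, and over the 9 times that of Dhx58 was lost without 0 h replicate 2 (adjusted p = 0.0921), 4 h replicate 1 (0.0625) or 8 h replicate 1 (0.0531). Dhx58 was also called with the replicate block, higher at 32 h against 0 h (adjusted p = 0.0112) and lower at 28 h against 4 h (0.0216).

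Among the transcription factors Irf1 and Stat2 climbed over the course, and Irf3 had no call in any comparison between times. Irf1, an interferon- and cytokine-induced activator of antiviral and MHC class I genes, had 545 and 490.2 at 0 h, 957 and 898 at 4 h, 905 and 929.9 at 8 h, and 917 and 926 at 12 h. Later it had 1016 and 987 at 16 h, 1058 and 1120.1 at 20 h, 1011 and 1217 at 24 h, 1139 and 1218 at 28 h, and 1275 and 1164 at 32 h. Both 0 h libraries lay far below the rest, the level stood on a plateau between 4 h and 12 h, and a second, smaller climb followed. The log2 change was 0.84 ± 0.09 at 4 h against 0 h (adjusted p = 2.47e-05), 0.34 ± 0.09 at 28 h against 4 h (adjusted p = 0.00599) and 1.23 ± 0.09 at 32 h against 0 h (adjusted p = 1.08e-07). Of these calls, that at 28 h against 4 h was lost without 28 h replicate 2 (adjusted p = 0.0615).

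Stat2, a subunit of the ISRE-binding complex, had 845 and 746 at 0 h, 972 and 946 at 4 h, 1009 and 1016 at 8 h, and 926 and 998 at 12 h. Later it had 1040.3 and 1145 at 16 h, 989.6 and 1267 at 20 h, 1164 and 1280.1 at 24 h, 1267 and 1540.0 at 28 h, and 1352 and 1453 at 32 h. The level of Stat2 drifted upwards, and the libraries of 28 h and 32 h did not overlap those of 0 h to 16 h. The change at 4 h against 0 h was not called (log2 0.27 ± 0.11, adjusted p = 0.106) except with the replicate block (adjusted p = 0.0215), and those at 28 h against 4 h (log2 0.54 ± 0.11, adjusted p = 0.00177) and at 32 h against 0 h (log2 0.82 ± 0.11, adjusted p = 6.33e-05) were. Irf9, the DNA-binding subunit of the same complex, had 169 and 143 at 0 h, 256 and 202 at 4 h, 198 and 215 at 8 h, and 215 and 187 at 12 h. Later it had 172 and 199 at 16 h, 175 and 205 at 20 h, 179 and 209 at 24 h, 192 and 187 at 28 h, and 212 and 194 at 32 h. Irf9 was highest at 4 h, where the rise over 0 h was called (log2 0.55 ± 0.14, adjusted p = 0.0159), and the F test over time did not pass (adjusted p = 0.157). Without 4 h replicate 1 the adjusted p was 0.158 and without 0 h replicate 2 it was 0.164. The rise of Irf9 at 32 h against 0 h (log2 0.38 ± 0.14, adjusted p = 0.0467) was just inside the threshold and was lost in 13 of the 28 alternatives. Irf3, which is activated by phosphorylation downstream of the sensors, was at 672 to 915 normalized reads over all libraries. Irf7, itself an interferon-induced amplifier of interferon production, had 55.1 and 43.9 at 0 h, and its later libraries were between 18.1 and 46.1. Irf7 was called between times with the replicate block, lower than at 0 h at 12 h (adjusted p = 0.0342) and 24 h (0.0323), and not without it.

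Antiviral effectors were 14 of the 31 tested members and held 6 of the 8 falls called at 4 h against 0 h. At 28 h against 4 h they held 10 of the 18 called rises, or 9 of 17 without Ifit1. The 4 h falls of Bst2, Ifitm3 and Ifi44 were not firm, as given below. Of 14 tested effectors, 1 rose and 6 fell at 4 h against 0 h (median log2 change -0.41), and 10 rose and 2 fell at 28 h against 4 h (median 0.71). Without Ifit1 the later counts were 9 and 2 of 13 (median 0.68). Gbp2 had 191 and 324 at 0 h, 87.2 and 91.4 at 4 h, 126 and 121 at 8 h, and 142 and 158 at 12 h. Later it had 190.0 and 270.3 at 16 h, 262 and 265 at 20 h, 247 and 323 at 24 h, 257 and 337 at 28 h, and 307 and 327 at 32 h. The 0 h libraries of Gbp2 differed from each other, yet both were above all of those at 4 h, 8 h and 12 h, and from 20 h on every library was above the lower of the 0 h values. The fall at 4 h against 0 h (log2 -1.47 ± 0.22, adjusted p = 4.57e-04) and the rise at 28 h against 4 h (log2 1.71 ± 0.22, adjusted p = 3.24e-05) were called in all 28 alternatives. Xaf1, an apoptosis-promoting protein that binds XIAP, had 66.8 and 76.9 at 0 h, 41.7 and 38.6 at 4 h, 53.7 and 71.3 at 8 h, and 56.4 and 79 at 12 h. Later it had 66.1 and 63.1 at 16 h, 92.7 and 100.3 at 20 h, 92 and 102 at 24 h, 82.9 and 110.5 at 28 h, and 119 and 100.1 at 32 h. Its libraries at 4 h were the lowest of all 18, and all libraries from 20 h on were above those of 0 h. The log2 changes of Xaf1 were -0.82 ± 0.20 at 4 h against 0 h (adjusted p = 0.0104), 1.23 ± 0.20 at 28 h against 4 h (adjusted p = 2.19e-04) and 0.60 ± 0.20 at 32 h against 0 h (adjusted p = 0.0259). The 4 h call was lost without 0 h replicate 2 (adjusted p = 0.0987) and without 4 h replicate 2 (adjusted p = 0.0537), and that at 32 h without 0 h replicate 1 (adjusted p = 0.141) and without 32 h replicate 1 (adjusted p = 0.17).

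Isg15, whose promoter carries the 3 overlapping ISRE matches shown above, had 62.3 and 67.3 at 0 h, 50.4 and 46.3 at 4 h, 37.3 and 58.6 at 8 h, and 34 and 55.6 at 12 h. Later it had 58.7 and 58.9 at 16 h, 57.2 and 96.4 at 20 h, 77.4 and 100.1 at 24 h, 78.6 and 126 at 28 h, and 102 and 107 at 32 h. The low stretch of Isg15 was broad, with all libraries from 4 h to 16 h below both of those at 0 h, and 7 of 8 libraries from 20 h on were above both. The rise at 28 h against 4 h was called (log2 1.03 ± 0.30, adjusted p = 0.0133), but not without 28 h replicate 2 (adjusted p = 0.158) or without 4 h replicate 2 (adjusted p = 0.0637). Ifit1 had 3.61 and 8.24 at 0 h, 2.91 and 1.29 at 4 h, 5.46 and 1.15 at 8 h, and 8.96 and 8.77 at 12 h. Later it had 12.1 and 8.41 at 16 h, 11.8 and 19.1 at 20 h, 18.9 and 36.7 at 24 h, 19 and 36.2 at 28 h, and 24.4 and 37.4 at 32 h. Ifit1 was among the rarest tested members and passed the filter on the mean through its late libraries, each of which from 24 h on exceeded every library up to 12 h. A gene kept for its late values had to be higher late, so the late rise of Ifit1 is given by its values alone. Counts of called members from the main limma fit that include Ifit1 are also given without it. Counts under the alternatives and counts of lowest and highest times are given only with it. Isg15 was called higher at 32 h against 0 h as well with the replicate block (adjusted p = 0.0109).

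Ifit2, a relative of Ifit1, took another course and did not dip. A window of Ifit2 held a GAS match and none held an ISRE match, and a link with its course was not tested. The values of Ifit2 were 388 and 443 at 0 h, 555 and 718 at 4 h, 709 and 843 at 8 h, and 945 and 1073 at 12 h. Later they were 1089.6 and 1162 at 16 h, 1175 and 1055 at 20 h, 1133 and 1292 at 24 h, 1209 and 1236 at 28 h, and 1188 and 1215 at 32 h. Every time point up to 16 h lay above the one before it in both libraries, after which the level stayed between 1055 and 1292. The rise was called at 4 h against 0 h (log2 0.60 ± 0.12, adjusted p = 0.00339), at 28 h against 4 h (log2 0.95 ± 0.12, adjusted p = 3.03e-05) and at 32 h against 0 h (log2 1.53 ± 0.12, adjusted p = 3.36e-07). Eif2ak2 (PKR), a kinase that stops translation on binding double-stranded RNA, had 1038 and 1321 at 0 h, 854 and 1058 at 4 h, 1201 and 1237 at 8 h, and 1308 and 1425 at 12 h. Later it had 1273 and 1389 at 16 h, 1359 and 1403 at 20 h, 1468 and 1494 at 24 h, 1470.3 and 1572 at 28 h, and 1481 and 1591 at 32 h. Eif2ak2 rose at 28 h against 4 h (log2 0.68 ± 0.11, adjusted p = 2.20e-04) and at 32 h against 0 h (log2 0.39 ± 0.11, adjusted p = 0.0106), the second of which was lost without 0 h replicate 1 (adjusted p = 0.158) and without 32 h replicate 2 (adjusted p = 0.0812).

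**Figure D2:**
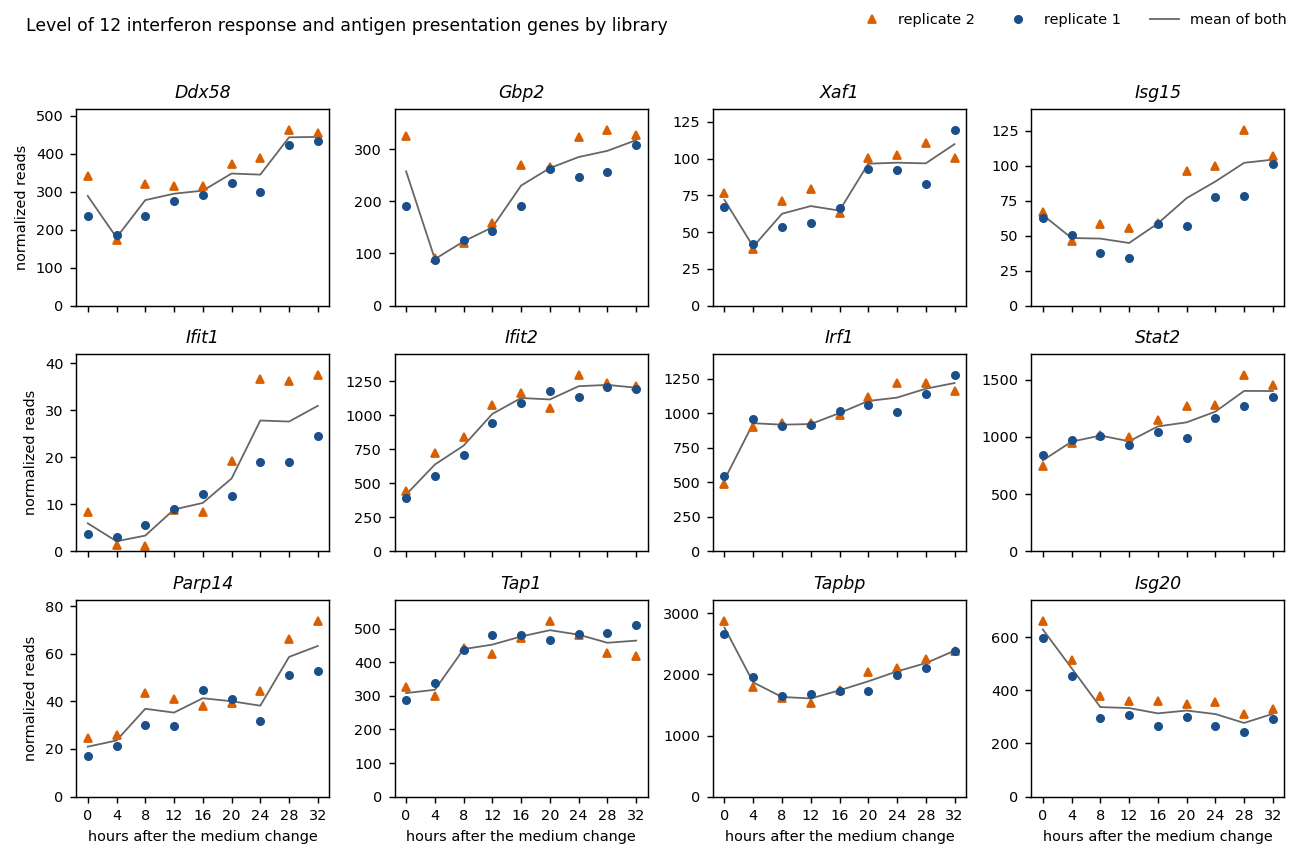
Normalized reads of 12 members in replicate 2 (orange triangles) and replicate 1 (blue circles) against hours after the medium change, with the mean of both as a grey line and a separate axis from 0 for each gene. Ddx58, Gbp2 and Xaf1 have their lowest libraries at 4 h, Ifit2 climbs to 16 h, Irf1 steps up once between 0 h and 4 h and climbs slowly after 12 h, and Isg20 falls over the first 8 h and stays down.

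Isg20, an RNA exonuclease, fell over the first 8 h and stayed down. It had 596 and 662 at 0 h, 454 and 512 at 4 h, 297 and 377 at 8 h, and 305 and 361 at 12 h. Later it had 265 and 361 at 16 h, 299 and 349 at 20 h, 264 and 357 at 24 h, 243 and 311 at 28 h, and 292 and 331 at 32 h. The 0 h and 4 h libraries were above all others, and at no time did Isg20 come back to its 0 h level. Its fall was called at 28 h against 4 h (log2 -0.81 ± 0.18, adjusted p = 0.0029) and at 32 h against 0 h (log2 -1.01 ± 0.18, adjusted p = 5.38e-04), in all 28 alternatives. Without the 0 h libraries Isg20 no longer passed the F test over time (adjusted p = 0.0787). The other effector that fell at 28 h against 4 h was Adar, an adenosine deaminase that edits double-stranded RNA, by little (log2 -0.20 ± 0.06, adjusted p = 0.0143), within 1836 to 2278 normalized reads over all libraries. With equal totals this change was -0.02 (adjusted p = 0.821) and with quantile normalization -0.13 (adjusted p = 0.116). The call was also lost without 4 h replicate 1 (adjusted p = 0.148), 28 h replicate 1 (0.0622) or 28 h replicate 2 (0.0647).

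The remaining tested effectors changed by smaller steps or varied more. Ifi44, of unsettled function, had 17.2 and 85.1 at 0 h, 6.78 and 6.44 at 4 h and 35.4 and 66.3 at 28 h. Replicate 2 was higher at every time but 4 h, and the 0 h libraries were further apart than any other pair. The 4 h call of Ifi44 (log2 -2.38 ± 0.72, adjusted p = 0.0311) was lost without 0 h replicate 2, 4 h replicate 1 or 4 h replicate 2. It was also lost with edgeR, with no filter on the mean and with no variance trend. Ifitm3 and Ifitm2, membrane proteins that block virus entry and among the members with most reads per length, ranged over 3920.3 to 6415 and 2742 to 4609 normalized reads. Ifitm3 fell at 4 h (log2 -0.32 ± 0.11, adjusted p = 0.0458), a call lost in 14 of the 28 alternatives, and Ifitm2 rose at 28 h against 4 h (log2 0.31 ± 0.12, adjusted p = 0.0445), a call lost in 8. Ifi35, which binds other interferon-induced proteins, fell at 4 h (log2 -0.40 ± 0.10, adjusted p = 0.00878) and rose at 28 h against 4 h (log2 0.33 ± 0.10, adjusted p = 0.0126). Without 4 h replicate 1 neither call of Ifi35 held (adjusted p = 0.0503 and 0.0566), nor did the first without 0 h replicate 2 (0.0995) or the second without 28 h replicate 2 (0.142). Bst2 (tetherin), which holds budding virus at the cell surface, was at 67.3 to 133 normalized reads, and its fall at 4 h (log2 -0.55 ± 0.18, adjusted p = 0.0474) was lost in 16 of the 28 alternatives. The rise of Bst2 at 28 h against 4 h (log2 0.58 ± 0.18, adjusted p = 0.022) was lost without 28 h replicate 2 (adjusted p = 0.148) and without 4 h replicate 2 (adjusted p = 0.126). With the replicate block Isg20 (adjusted p = 0.00274), Ifitm2 (0.0013) and Eif2ak2 (0.00275) were also called lower at 4 h against 0 h and Adar higher (0.0116). Sp100, a nuclear body protein, was at 4.21 to 23.3 normalized reads and was not called in any comparison between times.

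The remaining 8 effectors of the table were too low for the test, although several are among the most strongly interferon-induced genes known. Summed over 18 libraries, Ifit3 had 149 reads, Gbp3 112, Oasl2 90, Mx2 34, Mx1 25, Oas2 8, Oas1a 5 and Rsad2 3. At 0 h, 4 h and 28 h, the 2 libraries together held 14, 4 and 18 reads of Gbp3, and 9, 3 and 21 reads of Oasl2. Ifit3 had 6, 12 and 20 reads at the same times. These reads were not tested, and counts this small carry a wide counting error. The Ifit, Gbp, Oas, Mx and Ifitm families hold near copies whose reads the authors' counting could have split or dropped, so levels of single members are uncertain.

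Of the 5 regulators, Parp14, Parp9 and Dtx3l rose at 28 h against 4 h, Dtx3l being called higher than at 0 h already at 12 h (adjusted p = 0.00224), while Usp18 and Trim25 had no call between times. Parp14, an ADP-ribosyltransferase, had 17.2 and 24.7 at 0 h, 21.3 and 25.7 at 4 h, 30.0 and 43.7 at 8 h, and 29.6 and 41 at 12 h. Later it had 44.7 and 37.9 at 16 h, 40.9 and 39.2 at 20 h, 31.8 and 44.5 at 24 h, 51 and 66.3 at 28 h, and 52.6 and 73.8 at 32 h. All libraries from 28 h on exceeded every earlier one, and the rises at 28 h against 4 h (log2 1.28 ± 0.28, adjusted p = 0.00217) and at 32 h against 0 h (log2 1.55 ± 0.28, adjusted p = 4.80e-04) were called in all 27 alternatives that could be fitted for it. Dtx3l, a ubiquitin ligase that forms a complex with PARP9, had 193 and 165 at 0 h, 211 and 215 at 4 h, 258 and 280.5 at 8 h, and 256 and 278 at 12 h. Later it had 258 and 273 at 16 h, 256 and 268 at 20 h, 237 and 309 at 24 h, 286 and 319 at 28 h, and 322 and 327 at 32 h. It stepped up between 4 h and 8 h and had its highest mean at 32 h, with a called rise against 0 h (log2 0.86 ± 0.12, adjusted p = 8e-05) and at 28 h against 4 h (log2 0.50 ± 0.12, adjusted p = 0.00488), the second of which was lost without 28 h replicate 2 (adjusted p = 0.0565). Parp9 had 233 and 323 at 0 h, 219 and 211 at 4 h, 253 and 266 at 8 h, and 258 and 278 at 12 h. Later it had 235 and 302 at 16 h, 289.9 and 308 at 20 h, 292 and 345 at 24 h, 297 and 364 at 28 h, and 296 and 380.2 at 32 h. Parp9 rose at 28 h against 4 h (log2 0.61 ± 0.17, adjusted p = 0.00997), a call that was likewise lost without 28 h replicate 2 (adjusted p = 0.109). Parp9 was called with the replicate block, lower at 4 h (adjusted p = 0.019) and higher at 32 h (adjusted p = 0.035) against 0 h. Usp18, which removes ISG15 from its targets and restrains the interferon receptor, was at 11.7 to 31.1 normalized reads. Trim25, a ubiquitin ligase that activates RIG-I, was at 2388 to 2746, the narrowest relative range among the tested members.

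Among the MHC class I genes the peptide-loading genes Tap1 and Tapbp passed the F test over time, and the chain genes changed by smaller steps. Tap1, a subunit of the peptide transporter, had 289 and 328 at 0 h, 338 and 299 at 4 h, 437 and 443 at 8 h, and 481 and 425 at 12 h. Later it had 481 and 473 at 16 h, 468 and 524 at 20 h, 485 and 480.4 at 24 h, 488 and 429 at 28 h, and 512 and 418 at 32 h. All libraries from 8 h on were above those of 0 h and 4 h. The rise was called at 28 h against 4 h (log2 0.52 ± 0.11, adjusted p = 0.00207) and at 32 h against 0 h (log2 0.59 ± 0.11, adjusted p = 8.95e-04). Tapbp (tapasin), which bridges the transporter and the class I chain, had 2656 and 2881 at 0 h, 1952 and 1789 at 4 h, 1652 and 1612 at 8 h, and 1681 and 1535 at 12 h. Later it had 1735 and 1746 at 16 h, 1729 and 2047 at 20 h, 1991 and 2109.7 at 24 h, 2114 and 2259 at 28 h, and 2386 and 2393 at 32 h. It was highest at 0 h, lowest around 8 h and 12 h, and climbed over the second day without passing the 0 h libraries. The fall at 4 h against 0 h was called in all 28 alternatives (log2 -0.57 ± 0.08, adjusted p = 2.80e-04). The rise at 28 h against 4 h (log2 0.23 ± 0.08, adjusted p = 0.0353) was lost without 4 h replicate 2 (adjusted p = 0.209), 28 h replicate 1 (0.0504) or 28 h replicate 2 (0.209).

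B2m, the light chain of every class I molecule, had 5025 and 5676 at 0 h, 4506 and 4747 at 4 h, 4013 and 4574 at 8 h, and 4386 and 4537 at 12 h. Later it had 4278 and 4882 at 16 h, 4255 and 4661 at 20 h, 4589 and 5421 at 24 h, 4343 and 4862 at 28 h, and 4633 and 5128 at 32 h. B2m had no call in any comparison between times without the block, and at 28 h against 4 h its log2 change was -0.01 ± 0.10 (adjusted p = 0.951). With the replicate block B2m was called lower than at 0 h at 4 h (adjusted p = 0.00212), 12 h (1.54e-04) and 32 h (0.0264), and it differed among the 9 times (1.88e-04). H2-D1, a class I heavy chain, had 6699 and 6047 at 0 h, 6479.9 and 5789 at 4 h, 6149 and 5428 at 8 h, and 6355 and 5234 at 12 h. Later it had 5656 and 5109.6 at 16 h, 5565 and 5407 at 20 h, 5598 and 5141 at 24 h, 5417 and 5271 at 28 h, and 5286 and 4979 at 32 h. The level of H2-D1 edged down, and the fall at 32 h against 0 h was called (log2 -0.31 ± 0.09, adjusted p = 0.017). That call was lost with libraries scaled to equal totals (adjusted p = 0.422). It was also lost when 32 h replicate 2 (0.11) or 0 h replicate 1 (0.137) was left out. H2-K1, the other classical heavy chain measured, was at 167 to 239 normalized reads, and its fall at 32 h (log2 -0.38 ± 0.14, adjusted p = 0.0475) was lost in 16 of the 28 alternatives. H2-D1 with the replicate block differed among the 9 times (adjusted p = 2.75e-04) and was called lower at 28 h against 4 h (0.00316). Class I heavy chain genes are near copies of each other, so reads of H2-D1 and H2-K1 may have been split or dropped in counting.

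**Figure D3:**
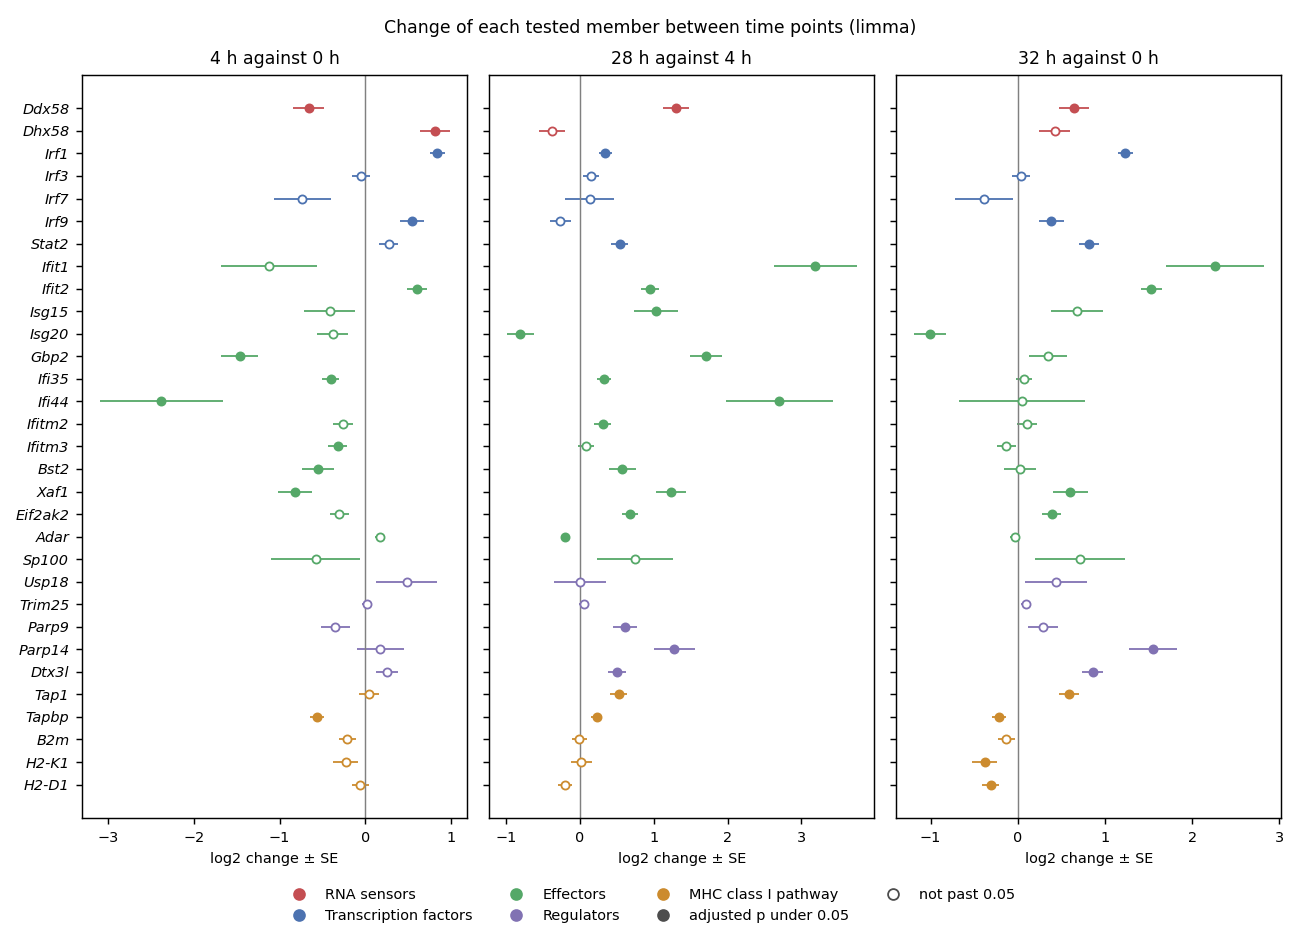
Log2 change ± SE of each tested member for 4 h against 0 h (left), 28 h against 4 h (middle) and 32 h against 0 h (right), with the genes in the same order in each panel, coloured by role and filled where the adjusted p from limma was under 0.05. Ifit1 passed the filter through its late libraries, so its points in the middle and right panels are a description. In the middle panel 9 of the 13 other effectors are filled and right of 0, while Isg20 and Adar are the filled points left of it.

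At 32 h against 0 h, 11 members rose and 4 fell, where 40.8% of all tested genes were called (20.5% higher, 20.4% lower). The members' median log2 change was 0.35, against 0.01 over all tested genes, and without Ifit1 10 of 30 rose with a median of 0.32. Those that rose were Ddx58, 3 of 5 transcription factors, 4 of 14 effectors (Ifit1, Ifit2, Xaf1, Eif2ak2), Parp14, Dtx3l and Tap1, and those that fell were Isg20, Tapbp, H2-K1 and H2-D1. Tapbp, at 2386 and 2393 at 32 h, against 2656 and 2881 at 0 h (log2 -0.21 ± 0.08, adjusted p = 0.0475), lost its call in 16 of the 28 alternatives. Without 32 h replicate 2 or 0 h replicate 1 fewer members were called, and so were fewer of all tested genes. At 12 h against 0 h, 4 members rose (Irf1, Ifit2, Dtx3l, Tap1) and 5 fell (Isg20, Gbp2, Ifitm2, Ifitm3, Tapbp), against 36.2% of all genes called. With the replicate block, 20 members were called at 12 h, 9 higher and 11 lower. Of all 12393 tested genes 6147 were then called, against 4489 without the block. At 12 h the calls of Gbp2 and Ifitm2 were lost without 0 h replicate 2 (adjusted p 0.248 to 0.271) or 12 h replicate 1 (adjusted p 0.1 to 0.118), and that of Ifitm2 without 12 h replicate 2 (adjusted p = 0.0583). At 24 h against 0 h, 8 rose and 3 fell, or 7 and 3 of 30 without Ifit1, against 37.2% of all genes.

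The scaling of the libraries bears on these splits. The authors' normalized totals were 30.0 to 35.1 M and were lower late in the course, so scaling to equal totals moved the median of all tested genes up by 0.18 at 12 h, 0.21 at 24 h and 0.22 at 32 h against 0 h, and by 0.19 at 28 h against 4 h, on the log2 scale. With that scaling 19 members rose and 1 fell at 32 h, 15 rose and 2 fell at 24 h, and 11 rose and 3 fell at 12 h. Of all 12393 tested genes, 6861, 6691 and 5956 were then called at these times. With the authors' scaling 5059, 4611 and 4489 were. At 4 h against 0 h the median moved by 0.03 and 5 members rose and 6 fell, with 2738 of all tested genes called, against 2664. At 28 h against 4 h, 21 rose and 1 fell, with 6501 of all tested genes called, against 5126. Against the shifted median of 0.22, the fall of Tapbp at 32 h became a log2 difference of 0.0016.

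The 4 tested leukocyte markers had a median log2 change of -0.37 at 4 h against 0 h, where the members had -0.26, and of -0.07 at 28 h against 4 h, where the members had 0.34. The summed level of all 13, most of it from Cd68 and Csf1r, was 393 and 364 normalized reads at 0 h, 367 and 372 at 4 h, and 426 and 331 at 28 h. The called marker among the 4 at 4 h, Lyz2, had 13.6 and 15.1 at 0 h, 4.85 and 7.72 at 4 h and 21.6 and 27.1 at 28 h. The fall of Lyz2 at 4 h against 0 h (log2 -1.10 ± 0.33, adjusted p = 0.0305) was called. Lyz2 averaged 12.3 normalized reads over all libraries, near the filter on the mean, and had its highest mean, 24.4, at 28 h. The late rise of Lyz2 is given by its values alone, because a gene kept for its late values had to be higher late. Of 3 tested epithelial markers, Krt8 (log2 -2.63 ± 0.17, adjusted p = 5.05e-08) and Krt18 (log2 -0.94 ± 0.23, adjusted p = 0.00497) fell at 32 h against 0 h and Krt14 was not called. Most of the epithelial sum, 244 and 215 at 32 h, against 1196 and 901 at 0 h, was Krt8. The part of these markers in the members' changes was not tested.

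No member passed the test for a 24 h rhythm by limma, and none did by edgeR or DESeq2. Over all tested genes 0.371% passed by limma, 39 genes passed by edgeR and 533 by DESeq2. With a linear term in time 2108 of all tested genes passed and again no member did. At an unadjusted p under 0.05 there were 3 members, Dhx58, Ifitm3 and Tapbp, chosen after their values were seen, against 17.0% of all tested genes. Their adjusted p were 0.286, 0.238 and 0.216.

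Replicate 2 and replicate 1 differed for 14 of the 31 members over the 9 times, 12 higher and 2 lower in replicate 2, where 37.9% of all tested genes were called (20.0% higher, 17.9% lower). The largest difference was that of Ifi44, at log2 1.01 ± 0.19 (adjusted p = 3.98e-04). In replicate 2 and replicate 1, Ifi44 had 85.1 and 17.2 at 0 h, 31.2 and 9.85 at 12 h, 46.7 and 18.9 at 24 h, and 54.6 and 29.2 at 32 h. Effectors made up 8 of the 12 higher members. Isg15 (log2 0.35 ± 0.10), Parp14 (0.31 ± 0.11), Isg20 (0.28 ± 0.04), Gbp2 (0.26 ± 0.07) and Parp9 (0.21 ± 0.05) followed Ifi44 in size, with adjusted p of 0.0089, 0.0282, 4.57e-05, 0.00832 and 0.00341. The call of Parp14 was lost when any 1 library of 0, 8, 12, 24, 28 or 32 h was left out (adjusted p 0.0536 to 0.0704), and that of Ifit2 without 4 h replicate 1 (0.052) or 4 h replicate 2 (0.0525). The members lower in replicate 2 were Dhx58 (log2 -0.20 ± 0.06, adjusted p = 0.0148) and H2-D1 (log2 -0.13 ± 0.02, adjusted p = 2.61e-04). B2m ran the other way from H2-D1, higher in replicate 2 at all 9 times (log2 0.15 ± 0.02, adjusted p = 3.97e-05). Depth differed between the replicates as given above, and its part in these differences was not tested.

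Per length of exon Ifitm3, Ifitm2, B2m and H2-D1 stood far above the sensors. Ifitm3 had 7229.6 ± 1112 normalized reads per kb (mean ± SD over 18 libraries), Ifitm2 5700.3 ± 818, B2m 5459.7 ± 488, H2-D1 2686 ± 240.2 and Tapbp 695 ± 131. The ranges of Ifitm2 and B2m overlapped, while that of H2-D1 lay below both. Tap1 was at 147 ± 24.5 and H2-K1 at 121 ± 12.1 normalized reads per kb. Ddx58 was at 83.8 ± 22.3, Dhx58 at 61.7 ± 12.3 and Ifih1 at 0.0788 ± 0.107 on the same scale. Exon lengths are from GENCODE M21 on GRCm38, a later build than that named in the submitters' processing notes, so these levels are approximate.

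**Figure D4:**
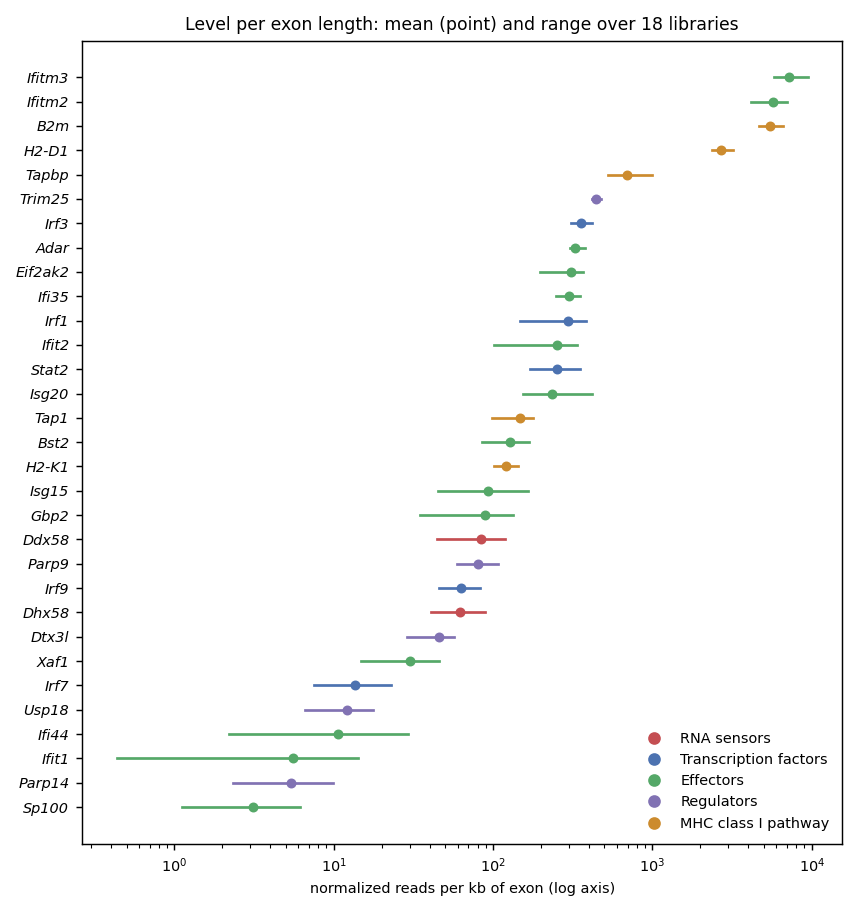
Normalized reads per kb of exon of the 31 tested members on a log axis, as the mean (point) and the lowest to highest of 18 libraries (line), coloured by role. Ifitm3, Ifitm2, B2m and H2-D1 form the top and the sensors lie in the lower middle.

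The ISRE core set beside the late rise gave the following counts. Of 7 tested members with a match, 6 rose at 28 h against 4 h (Isg15, Ifit1, Gbp2, Ifitm2, Bst2, Stat2) and B2m was not called, and without Ifit1 the count was 5 of 6. Of 20 tested members with a window and no match, 10 rose, 2 fell and 8 were not called. Over all tested genes 20.6% rose and 20.7% fell in this comparison. Without 28 h replicate 2 the calls of Isg15, Ifitm2 and Bst2 were lost among members with a match. Among those with no match, the rises of Dtx3l, Ifi35, Ifi44, Irf1 and Tapbp and the fall of Adar were lost. Whether a match goes with the rise was not tested. Ddx58, Xaf1, Ifit2 and Eif2ak2 are among the members that rose with no match in the window, and no match says only that these letters are not in the 250 bases searched.

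Genes of the same pathways outside the module were counted by list. Of 69 such genes 65 were in the table and 57 were tested. At 28 h against 4 h, 25 rose and 7 fell with a median log2 change of 0.24, where 41.4% of all tested genes were called (20.6% higher, 20.7% lower). Some of the tested genes, Oas1b and Igtp among them, were near the filter on the mean and higher late, so the count of late rises is a description. At 4 h against 0 h 8 rose and 15 fell, where 21.5% were called (11.0% higher, 10.5% lower). Among receptors and signalling genes, 3 of 13 rose and 2 fell at 28 h against 4 h, a share near that of all genes. Ifngr2, a chain of the interferon gamma receptor, and Ptpn1, a phosphatase of JAK kinases, fell at 32 h against 0 h (log2 -0.64 ± 0.07 and -0.56 ± 0.05, adjusted p = 3.44e-06 and 2.17e-06). Ifnb1, the ligand interferon beta, had 0 to 2.82 normalized reads and was not tested.

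Other sensing genes rose in 6 of 12 cases at 28 h against 4 h and fell in 2. Tlr3, the endosomal receptor for double-stranded RNA, had 162 and 166 at 28 h, against 73.6 and 63.1 at 4 h (log2 1.25 ± 0.13, adjusted p = 5.56e-06). Trim21, a cytosolic antibody receptor, had 138 and 154 at 32 h, against 61.4 and 50.8 at 0 h (log2 1.37 ± 0.14, adjusted p = 5.05e-06). Both genes were higher in each late library than in either early one. Of 19 other effectors, 10 rose at 28 h against 4 h and the other 9 were not called. Those with the smallest p in the F test were Mov10, an RNA helicase, and Ifi203, a member of the p200 family (log2 1.20 ± 0.10 and 1.20 ± 0.13, adjusted p = 6.93e-07 and 6.59e-06). Oas1b and Igtp, also in this list, averaged 11.0 and 14.9 normalized reads, near the filter on the mean. Oas1b averaged 6.38 at 0 h and 17.6 at 32 h, and Igtp 3.87 at 4 h and 27.0 at 32 h. A gene kept for its late values had to be higher late, so the count of late rises in this list is a description. Of 13 other antigen presentation genes, 6 rose and 3 fell at 28 h against 4 h, and 2 rose and 6 fell at 4 h against 0 h. Psme1, a subunit of the proteasome activator, had 1040.4 and 1001 at 0 h, 766 and 858 at 4 h and 1069.5 and 1168 at 28 h. It fell at 4 h against 0 h (log2 -0.33 ± 0.08, adjusted p = 0.0135) and rose at 28 h against 4 h (log2 0.46 ± 0.08, adjusted p = 5.68e-04). Calr, a chaperone of class I chains in the endoplasmic reticulum, had 40299.7 and 39573 at 32 h, against 49527 and 46599 at 0 h (log2 -0.27 ± 0.08, adjusted p = 0.0167).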

How the data were processed

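RNA was sequenced in 18 NIH3T3 libraries. The deposited values are a signal per gene and library: the authors scaled each library's reads by its own factor and kept 2 decimals. TopHat, HTSeq, DESeq and mm9 are named in the submitters' processing notes; their roles, versions and the annotation are not given in the sources used here. Dividing by each library's step gave whole reads within 0.02 reads for 100% of values, and 2 columns whose step is near 1 (28 h and 32 h, replicate 2) cannot be told from unscaled counts in this way. A library's depth is its sum of recovered reads.

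The members, lists, tests and naming rule were chosen with earlier results of these data known. Genes with a mean of at least 10 (12393 of 21937) were fitted with limma 3.58.1 in R 4.3.3 on log2(value + 1) with a variance trend and Benjamini-Hochberg adjustment at 0.05, 2-sided. The fits used a moderated F over 9 times, contrasts between times, a cosine and sine of 24 h, and a replicate coefficient beside time. Values in every library are given for up to 14 members past 0.05 in the F test by fitted range, for sensors, transcription factors and class I genes (some as ranges), and for up to 6 members by replicate difference; other pathway genes are named by smallest F p, and some of them are not reported here.

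Alternatives were pseudocounts of 0.5 and 5, no filter or a mean of at least 50, equal totals, quantile normalization, no variance trend, a replicate block, a linear term for the rhythm, edgeR 4.0.16 and DESeq2 1.42.0 on recovered reads, each library left out, and, chosen after seeing the data, both 0 h libraries left out. The fits were tested on simulated data. Same-numbered libraries deviated together in all 36 pairs of times (correlation 0.230 to 0.502), so the numbers pair the libraries; no label states why. Promoters were matched by symbol in RefSeq GRCm38.p6, not the authors' build, and motifs searched as letters. Python 3.11.15 with matplotlib 3.10.9 made the figures.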

Additional observations from a re-analysis of the deposited data

How the results depend on the processing

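Counts of called members stayed within 1.5 times the values given above under other pseudocounts, filters, quantile normalization, edgeR, DESeq2 and no variance trend, in all 8 tests. With the replicate block, which uses the pairing of the libraries, the counts against 0 h were 19 at 4 h and 20 at 12 h. They were 12 and 9 without it. Over all tested genes these counts were 4662 and 6147 with the block, against 2664 and 4489. No other count of members moved by over 1.5 times with the block. With equal totals 14 were called at 12 h and 17 at 24 h against 0 h, against 9 and 11. Over all tested genes 5956 and 6691 were then called, against 4489 and 4611. Leaving out 1 library gave 4 to 13 called members at 4 h, 8 to 12 at 12 h, 8 to 12 at 24 h and 8 to 15 at 32 h against 0 h, 10 to 20 at 28 h against 4 h, and 17 to 21 over the 9 times. It gave 0 for the rhythm and 13 to 14 between the replicates. The rhythm aside, the fits behind the lowest of these counts also called fewer of all tested genes. The lone library left at a time was taken to vary as much as the rest. Equal totals reversed 4 changes, by construction a shift of all genes: Trim25 at 12 h (0.17, adjusted p = 0.0299), Adar at 24 h (0.16) and 32 h (0.18), and Tapbp at 32 h (0.0016), all against 0 h. The cause of the other losses was not tested. Depth limits the 9 members with a mean under 10.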
